A study of Rattus norvegicus with 8 samples.

Results

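The genes described here are those of the GnRH, kisspeptin and neurokinin B system in the hypothalamus of nursing rats. They are Gnrh1, Kiss1, Kiss1r, Tac2, Tacr3, Pdyn, Oprk1, Npvf, Inhba and Fst, taken as every non-control probe whose gene name on the array is one of these. All 10 genes were on the array, on 11 probes and 20 spots, among 26269 gene names, and all 10 were among the 16574 genes that were bright enough to test. Hypothalamic RNA came from lactating Wistar rats on postpartum day 7, from 4 dams labelled control and 4 labelled TCDD. TCDD is a dioxin that binds the aryl hydrocarbon receptor, and the sources used here give no dose, route or timing for it. Each dam's RNA was labelled with Cy3 and hybridised to a single Agilent rat array in 1 colour. The question was whether dioxin exposure of mothers changes hypothalamic transcripts.

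GnRH, the product of Gnrh1, is made by scattered neurons of the preoptic area and septum and is released at the median eminence, from where it drives the secretion of gonadotropins by the pituitary. Kisspeptin, from Kiss1, acts on GnRH neurons through the receptor encoded by Kiss1r. In the arcuate nucleus kisspeptin neurons also make neurokinin B and dynorphin, which start and stop their bursts through the receptors encoded by Tacr3 and Oprk1, and suckling holds this system low during lactation.

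The probes that read the main members are shown so that each value can be tied to its sequence. All are written 5′ to 3′ on the transcript strand, as the scanner files give them, with positions on the rat build rn4. Exon and UTR positions were not looked up, as no annotation of rn4 was used.
Gnrh1, first 30 of 60 bases, chr15:47307423-47307482, plus strand: tgttacagctctgtaattgtgtgggcttcc
Kiss1, chr13:46244823-46244882, plus strand: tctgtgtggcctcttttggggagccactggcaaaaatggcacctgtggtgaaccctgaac
Kiss1r, chr7:11298057-11298116, minus strand: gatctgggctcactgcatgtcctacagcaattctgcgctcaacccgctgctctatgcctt
Npvf, chr4:78886521-78886580, minus strand: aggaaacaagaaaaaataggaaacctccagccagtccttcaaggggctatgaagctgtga
Fst, chr2:46542246-46542305, minus strand: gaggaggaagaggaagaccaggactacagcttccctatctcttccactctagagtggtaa
Tac2, last 30 of 60 bases, chr7:67723606-67723665, plus strand: ctcctcaacAATAAAgggtttttacaatgg
Oprk1, brighter probe, first 30 of 60 bases, chr5:14038275-14038334, minus strand: acatgaaagagagcagattcatacatatgt
Oprk1, dimmer probe, first 30 of 60 bases, chr5:14040848-14040907, minus strand: gaagaggaaagatgaggtattcaataactt
The capitals in Tac2 mark the letters AATAAA, the usual polyadenylation signal. The 2 Oprk1 probes start 2573 bases apart. The other probes are those of Tacr3 at chr2:232404773-232404832 on the plus strand, Pdyn at chr3:117291061-117291120 on the minus strand and Inhba at chr17:57244565-57244624 on the minus strand. RefSeq's current symbol for Tac2 is Tac3, and the name on the array is kept here.

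Values below are the log2 processed signal of a probe minus the 75th percentile of its array, so 0 is the signal of a probe at that percentile. A probe's brightness depends on its sequence, so levels were compared between dams and not between genes. Each group of 4 lay on its own slide, so slide and treatment cannot be told apart. The labels do not say that the dams were separate litters or rounds of exposure, and p-values measure only the spread between these samples.

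None of the members passed the test between TCDD and control dams. With limma, 0 of the 10 genes reached an adjusted p of 0.05, where 0.0181% of all 16574 genes did, and 0 reached an unadjusted p of 0.05 in either direction, where 11% of all genes did (7.28% higher and 3.72% lower in TCDD dams). The values of the groups overlapped in all 10 genes, and 7.28% of all genes had groups that did not overlap. The estimate was below 0 for 7 of the 10 (53.8% of all genes) and above 0 for Gnrh1, Tac2 and Tacr3. The median log2 fold change of the members was -0.15 against -0.01 over all genes tested. Their median absolute log2 fold change was 0.18 against 0.08.

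Dams of the same group differed widely in several members. Every one of the 10 had a within-group SD above the median of all genes, which was 0.12 on the log2 scale, and 4 of them (Gnrh1, Kiss1, Npvf and Fst) lay above the 90th percentile. These percentiles are descriptions, with no test. In bulk tissue, fewer cells of a type and less RNA per cell cannot be told apart.

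**Figure D1:**
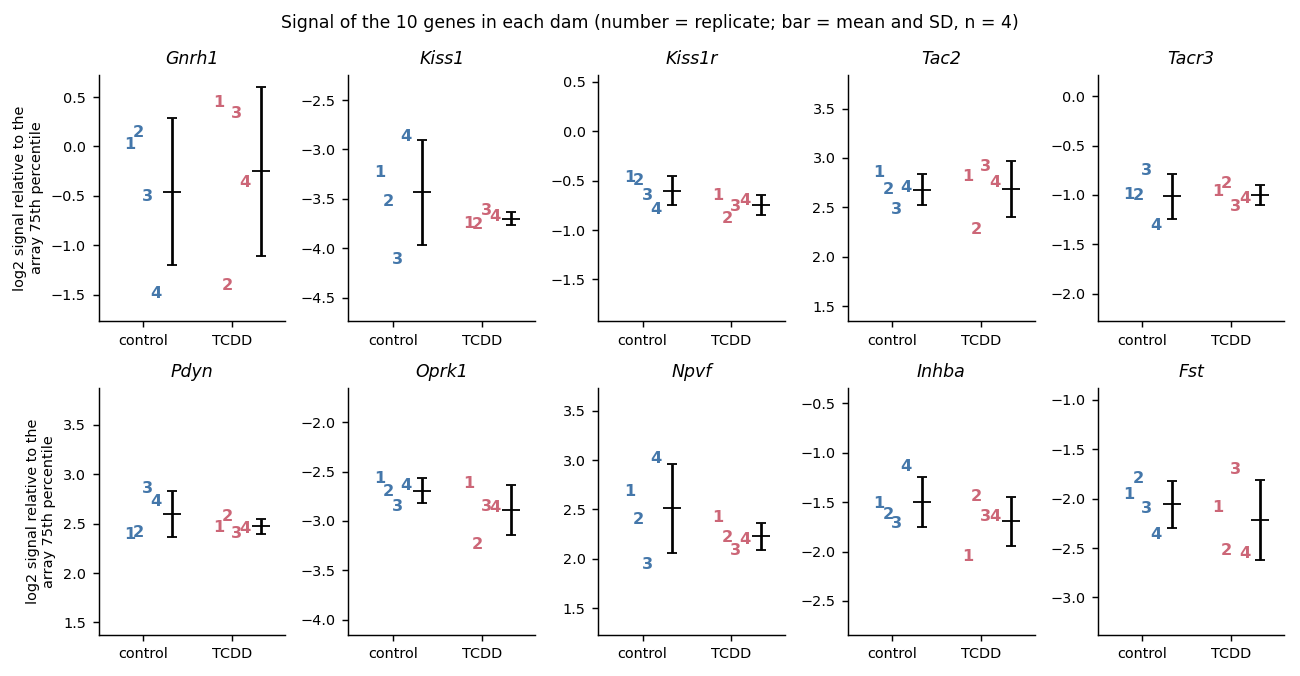
Log2 signal relative to the array's 75th percentile (y axis, a span of 2.5 in each panel) of the 10 genes in control (blue) and TCDD (red) dams; each digit is the replicate number of a dam, and the bar is the mean and SD of 4 dams. The dams of the groups overlap in every panel, and the widest spread is that of Gnrh1, from -1.49 to 0.45.

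Gnrh1 encodes the GnRH decapeptide itself. In control dams its signal was 0.02, 0.14, -0.50 and -1.49, and in TCDD dams it was 0.45, -1.41, 0.33 and -0.37, in the order of the replicate numbers. Each group held one dam far below the others, control replicate 4 and TCDD replicate 2, and the brightest dam stood 3.84-fold above the dimmest. The group means were -0.46 ± 0.74 and -0.25 ± 0.86 (SD, n = 4 each), and the log2 fold change of 0.21 had an SE of 0.49 (limma adjusted p = 0.920). The 95% interval of the ratio of TCDD to control ran from 0.534 to 2.51, so ratios across that range are compatible with these data. The interval is not a limit of detection, as the test was adjusted over all genes. The estimate went below 0 without control replicate 4 (-0.13) and without TCDD replicate 1 (-0.02). It was 0.37 without control replicate 1, 0.41 without control replicate 2, 0.60 without TCDD replicate 2 and 0.015 without TCDD replicate 3. The pooled SD of Gnrh1 lay at percentile 98.8 of all genes. The array carries this probe on 10 spots, and the SD between those spots ran from 0.0345 to 0.0752 on an array, which covers the noise of spots and not that of labelling, hybridisation or dissection.

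Kiss1, the kisspeptin gene, was dim but well above background on all 8 arrays. Its control values were -3.23, -3.53, -4.12 and -2.87, and its TCDD values were -3.74, -3.76, -3.62 and -3.68. The control dams spanned both the highest and the lowest value, and the TCDD dams lay within 0.138 of each other. The SD was 0.53 in control and 0.06 in TCDD dams, and TCDD minus control was -0.27 on the log2 scale (SE 0.23, limma adjusted p = 0.740). Control replicates 3 and 4, the lowest and highest dams, each moved it: it was -0.49 without replicate 3 (unadjusted p = 0.0108, adjusted p = 0.291) and -0.076 without replicate 4 (unadjusted p = 0.702), and -0.083 with array weights.

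Kiss1r encodes the kisspeptin receptor, which GnRH neurons carry. It read -0.47, -0.50, -0.65 and -0.79 in control dams and -0.65, -0.88, -0.76 and -0.70 in TCDD dams. The 2 highest dams were controls, and the lowest was TCDD replicate 2. Its difference of -0.15 on the log2 scale (SE 0.087, limma adjusted p = 0.619) had an interval from -0.35 to 0.05. Without control replicate 4 it was -0.21 (unadjusted p = 0.031, adjusted p = 0.342).

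Tac2, which encodes the precursor of neurokinin B, had control values of 2.86, 2.68, 2.48 and 2.70 and TCDD values of 2.81, 2.28, 2.91 and 2.75. The lowest was again TCDD replicate 2. The difference of 0.01 on the log2 scale (SE 0.14, limma adjusted p = 0.993) had an interval from -0.32 to 0.34, and its sign turned with median scaling (-0.01) and with normexp background correction (-0.03). Tacr3, the neurokinin B receptor, read -0.999, -1.001, -0.75 and -1.31 in control dams and -0.97, -0.88, -1.11 and -1.03 in TCDD dams. The controls held its highest and lowest dams. Its difference of 0.02 on the log2 scale (SE 0.11, limma adjusted p = 0.979) turned to -0.04 with normexp correction and to -0.0046 with median scaling.

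Pdyn encodes prodynorphin, the source of the dynorphins, and many neurons outside the arcuate nucleus also make it. The control values were 2.39, 2.41, 2.86 and 2.73, and the TCDD values were 2.46, 2.57, 2.40 and 2.45. Control replicates 3 and 4 were the 2 highest dams, and the rest lay together. The difference was -0.12 on the log2 scale (SE 0.11, limma adjusted p = 0.748), with SDs of 0.23 in control and 0.07 in TCDD dams. It was -0.037 without control replicate 3, -0.081 without control replicate 4, and -0.19 without either of the other 2 controls.

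Oprk1, the kappa opioid receptor on which dynorphin acts, was read by both probes shown above, and they disagreed. The brighter probe gave -2.57, -2.70, -2.86 and -2.64 in control dams and -2.62, -3.23, -2.85 and -2.87 in TCDD dams. Its difference was -0.20 on the log2 scale (SE 0.13, limma adjusted p = 0.635), and TCDD replicate 2 was lowest. The dimmer probe gave -4.35, -4.44, -4.38 and -4.03 in control dams and -3.84, -4.14, -4.18 and -4.08 in TCDD dams. There the log2 fold change was 0.24 (SE 0.11, unadjusted p = 0.0594, adjusted p = 0.492 over 19102 probes), and control replicate 4 lay above all TCDD dams but TCDD replicate 1. Averaged, the 2 probes gave 0.02 (adjusted p = 0.967), so no direction can be given for this gene. The brighter probe stood at -0.29 without TCDD replicate 1 (unadjusted p = 0.04, adjusted p = 0.409) and at -0.087 without TCDD replicate 2 (unadjusted p = 0.377).

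Npvf encodes the precursor of the RFamide peptide known as gonadotropin-inhibitory hormone in birds, made by neurons of the dorsomedial hypothalamus. Control dams had 2.68, 2.40, 1.95 and 3.02, and TCDD dams had 2.42, 2.22, 2.09 and 2.20. As for Kiss1, control replicate 4 was the highest and control replicate 3 the lowest of all 8 dams. The SD was 0.45 in control and 0.14 in TCDD dams. TCDD minus control was -0.28 on the log2 scale (SE 0.21, limma adjusted p = 0.686), and it was -0.47 without control replicate 3 (unadjusted p = 0.0154, adjusted p = 0.328) but -0.11 without control replicate 4 (unadjusted p = 0.53).

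Inhba encodes the βA subunit that activins and inhibins share. It read -1.51, -1.63, -1.72 and -1.14 in control dams and -2.05, -1.45, -1.65 and -1.64 in TCDD dams. The highest dam was control replicate 4 and the lowest TCDD replicate 1. TCDD minus control was -0.20 on the log2 scale (SE 0.16, limma adjusted p = 0.717), and it was -0.076 without control replicate 4, -0.080 without TCDD replicate 1 and -0.095 with array weights. Fst encodes follistatin, which binds activin and blocks it. Its values were -1.96, -1.80, -2.10 and -2.36 in control dams and -2.09, -2.53, -1.71 and -2.55 in TCDD dams, with the highest and the lowest dams both in the TCDD group. The difference was -0.16 on the log2 scale (SE 0.20, limma adjusted p = 0.831). It was -0.078 without control replicate 2, -0.27 without control replicate 4, -0.060 without TCDD replicate 2, -0.33 without TCDD replicate 3 and -0.052 without TCDD replicate 4.

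**Figure D2:**
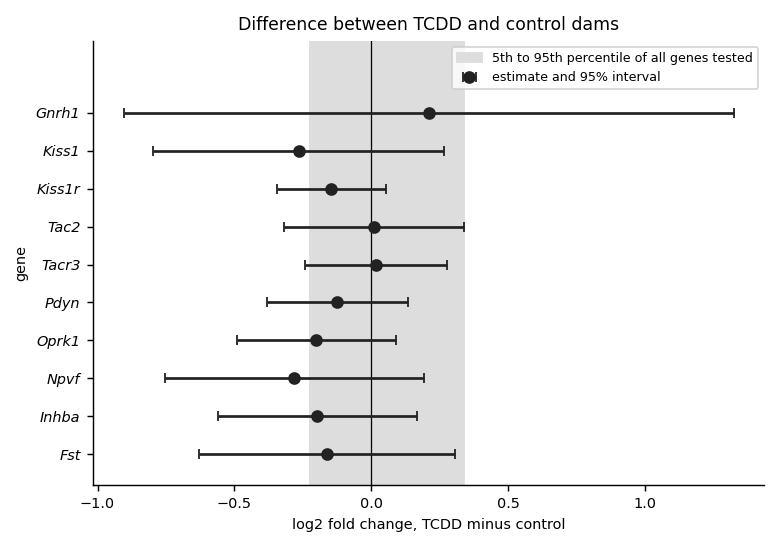
Log2 fold change, TCDD minus control (x axis), of each of the 10 genes (y axis), with its 95% interval from limma over 4 dams a group; the grey band holds the 5th to 95th percentile of the estimates of all genes tested, -0.22 to 0.34. Every interval includes 0, and that of Gnrh1 is the widest, from -0.90 to 1.33.

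The spread was wider among control than among TCDD dams in 6 of the 10 members, where 46.6% of all genes were so. The gap was widest for Kiss1, Npvf, Pdyn and Tacr3. It was the other way round for Gnrh1, Tac2, Oprk1 and Fst. Whether the spreads of the groups differ was not tested. Control replicate 4 held the highest or the lowest value of 5 of the 10 genes, control replicate 3 of 4, control replicate 1 and TCDD replicate 2 of 3 each, and control replicate 2 of 0.

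**Figure D3:**
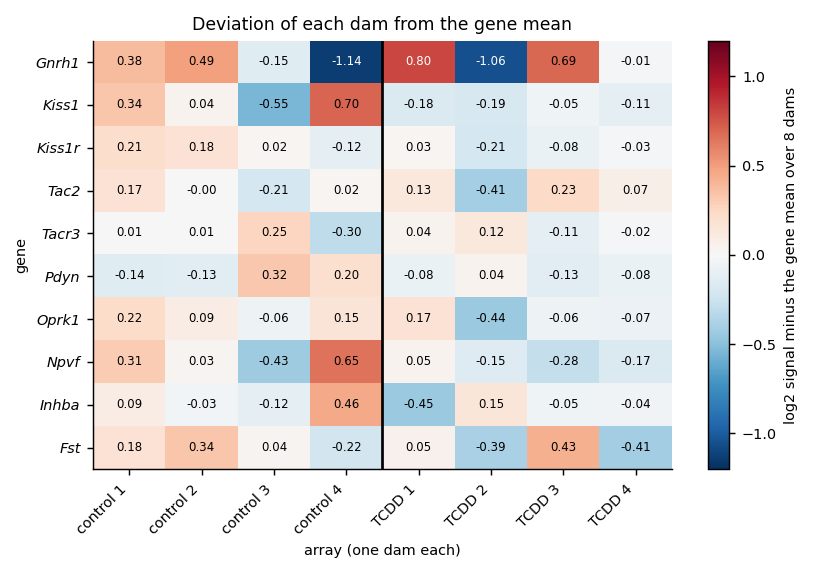
Log2 signal minus the gene's own mean over 8 dams (colour and printed value) for each of the 10 genes (rows) and each array (columns, with a line between control and TCDD dams). Control replicate 4 and TCDD replicate 2 are the darkest cells for Gnrh1, at -1.14 and -1.06, and control replicate 4 is 0.70 above the mean for Kiss1 and 0.65 for Npvf.

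The dissected tissue was checked against marker genes of the hypothalamus and its surroundings. Of 17 genes that define the hypothalamus, such as Oxt, Avp and Hcrt, 16 were on the array and 15 passed the brightness filter, and their mean log2 signal ran from 0.92 to 1.19 in control and from 0.98 to 1.03 in TCDD dams. Of the markers on the array, 11 of 11 passed for thalamus, 10 of 12 for striatum and 8 of 12 for cerebral cortex and hippocampus. For anterior pituitary and pars tuberalis 6 of 13 passed. Passing the filter therefore does not tell hypothalamus from neighbouring tissue. Each member was then set against the mean log2 signal of 14 marker lists over the 8 dams, 140 relations in all, with exact permutation tests over the 40320 orders of the dams and p-values adjusted over the 140. One relation passed 0.05 by Pearson's r and 0 by Spearman's rho, and 6 had an adjusted p below 0.1 by Pearson's r. These 6 were picked for their size, and the 4 dams of a slide are too few for a correlation of their own, so r after removing the group means, which are also the slide means, is given beside each. Both sides of each relation come from the same arrays and share their scaling.

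Gnrh1 followed the markers of the preoptic area and septum, where its neurons lie. Over 8 dams r was 0.91 (exact permutation p = 0.00126, adjusted p = 0.0538) and rho was 0.905 (exact permutation p = 0.00456, adjusted p = 0.16). Leaving out TCDD replicates 2 and 3, the dams farthest from the median of the marker score, gave r of 0.867, and removing the group means gave 0.916. In 11 alternatives of processing or with 1 dam left out, r ran from 0.868 to 0.944 and the adjusted permutation p from 0.0498 to 0.185. The score was the mean of 8 of 11 markers, and it ran from -2.47 to -2.00 in control and from -2.68 to -1.95 in TCDD dams, and 2 markers were below that brightness everywhere. Lhx8, a transcription factor of basal forebrain neurons, read -2.08, -1.02, -2.56 and -3.24 in control and -1.94, -4.01, -1.17 and -2.22 in TCDD dams. Lhx6, of the same family, read -0.98, -0.82, -1.31 and -1.78 in control and -1.22, -1.80, -0.80 and -1.11 in TCDD dams. The dams low in Gnrh1, control replicate 4 and TCDD replicate 2, were the lowest of the 8 for Lhx8, for Lhx6 and for the neuropeptide gene Nts, at 0.38 and 0.0036 for Nts. These 3 markers were chosen after their values were seen, and the other scored markers did not share this order. Moxd1 was highest of all dams in control replicate 4 (-2.84), Hmx2 (-1.58) and Hmx3 (-3.90) were second highest there, Zic2 was second highest in TCDD replicate 2 (-3.61), and Zic1 was lowest in control replicate 4 (-2.69) but above 5 other dams in TCDD replicate 2 (-1.97). The same pair had the highest scores of the arcuate markers, 2.18 and 2.02, where the other dams lay between 1.70 and 1.79. Gnrh1 and the arcuate score had r of -0.858 (exact permutation p = 0.0194, adjusted p = 0.194; rho -0.595, exact permutation p = 0.132, adjusted p = 0.561), and r was 0.171 without these dams, so that relation rests on them. Whether the extent of the dissection played a part in the values of Gnrh1 was not tested.

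**Figure D4:**
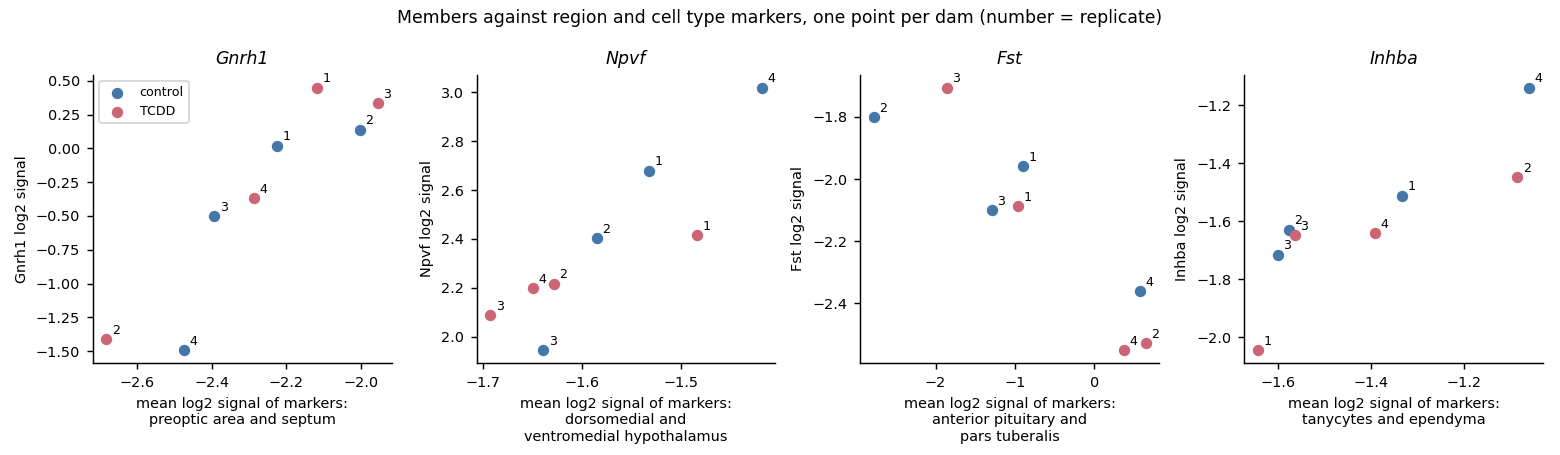
Log2 signal of Gnrh1, Npvf, Fst and Inhba (y axes) against the mean log2 signal of a marker list (x axes) in control (blue) and TCDD (red) dams, with the replicate number beside each point. Gnrh1 rises with the preoptic and septal score (r = 0.91), Npvf with the dorsomedial and ventromedial score (r = 0.887) and Inhba with the tanycyte and ependymal score (r = 0.853), and Fst falls with the score of the anterior pituitary and pars tuberalis (r = -0.918).

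Npvf followed the markers of the dorsomedial and ventromedial hypothalamus, with r of 0.887 (exact permutation p = 0.00322, adjusted p = 0.0752) and rho of 0.905 (exact permutation p = 0.00456, adjusted p = 0.16). It was 0.872 without the 2 dams farthest out and 0.864 with the group means removed. In 11 alternatives of processing or with 1 dam left out, r ran from 0.768 to 0.95 and the adjusted p from 0.0639 to 0.478. The score was the mean of 7 of 10 markers and ran from -1.64 to -1.42 in control and from -1.69 to -1.48 in TCDD dams. Fezf1 was highest in control replicate 4 (1.70), as Npvf was, but Grp was low there (-0.28). Nr5a1 (-5.12) and Nptx2 (-0.73) were lowest of all dams in control replicate 1, the second highest dam for Npvf. These markers were picked after their values were seen.

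Inhba rose with the markers of tanycytes and ependyma, the cells that line the ventricle, with r of 0.853 (exact permutation p = 0.000149, adjusted p = 0.0208) and rho of 0.929 (exact permutation p = 0.00223, adjusted p = 0.156). Without the 2 farthest dams r was 0.703, and with the group means removed it was 0.908. This relation passed the threshold on all 8 dams, but with any one dam left out the adjusted p ran from 0.0556 to 0.503, and with normexp correction it was 0.21. The score, a mean of 8 of 11 markers, ran from -1.60 to -1.06 in control and from -1.64 to -1.08 in TCDD dams. Control replicate 4 and TCDD replicate 2, the dams highest in Inhba, were also the highest in Scn7a, Crym and Vim. The other scored markers did not share this. Ccdc153 was lowest of all dams in control replicate 4 (-0.93), and Foxj1 was highest in TCDD replicate 3 (0.99). The tanycyte marker Rax did not pass the filter. These markers were picked after their values were seen.

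Fst fell with the score of the list of the anterior pituitary and pars tuberalis, the latter being the part of the pituitary that adheres to the median eminence. Its r was -0.918 (exact permutation p = 0.00265, adjusted p = 0.0743), its rho was -0.81 (exact permutation p = 0.0218, adjusted p = 0.277), and r was -0.915 without the 2 farthest dams and -0.912 with the group means removed. In 11 alternatives of processing or with 1 dam left out, r ran from -0.936 to -0.879. The adjusted permutation p ran from 0.103 to 0.319 there, above 0.1 in each. Only 6 of the 13 markers passed the filter, with scores from -2.78 to 0.57 in control and from -1.86 to 0.65 in TCDD dams, and 5 did not clear background on a single array. Cga, the shared subunit of the pituitary glycoprotein hormones, read 1.44, -3.47, 1.69 and 5.59 in control dams and 1.59, 5.90, -1.80 and 5.29 in TCDD dams. The 3 dams highest in Cga were the 3 lowest in Fst. Cga and Tshb, the thyrotropin subunit gene, had by far the widest spread of the 6 scored markers, with Tshb from -6.70 to 2.65, and both were picked after seeing their values. Tshb entered the score through its TCDD arrays, as its reading of -6.70 in control replicate 2 was too dim for the filter. The lowest score, -2.78 in that dam, thus rests in part on a reading near background. Without control replicate 2, r was -0.936 (adjusted permutation p = 0.114). The hormone genes Prl and Gh1 were left out of the score by the filter, as only 1 control array and 3 TCDD arrays had them well above background, and they did not follow Cga. Prl was 0.42 in control replicate 2 and 2.53 in TCDD replicate 3, the 2 dams highest in Fst, 2.09 and 2.57 in TCDD replicates 2 and 4, and not well above background in control replicate 4, 1 of the 3 dams lowest in Fst. Gh1 was well above background on the same 4 arrays. The part of adhering pituitary tissue in the level of Fst was not tested.

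For Tac2 the list was that of meninges and fibroblasts, with r of -0.901 (exact permutation p = 0.00154, adjusted p = 0.0538) and rho of -0.833 (exact permutation p = 0.0154, adjusted p = 0.239). TCDD replicate 2, the dam lowest in Tac2, had the highest score of that list, 0.16, where the other dams lay between -2.81 and -0.98, and r was -0.804 without TCDD replicates 1 and 2 and -0.919 with the group means removed. In 11 alternatives of processing or with 1 dam left out, r ran from -0.946 to -0.796 and the adjusted permutation p from 0.0639 to 0.26. For Kiss1r it was blood, with r of -0.909 (exact permutation p = 0.000719, adjusted p = 0.0503) and rho of -0.929 (exact permutation p = 0.00223, adjusted p = 0.156), and r was -0.805 without control replicates 1 and 2 and -0.868 with the group means removed. Blood markers ran from 2.55 to 4.22 in control and from 3.42 to 4.49 in TCDD dams (exact permutation p = 0.114), and 5 of 5 measured ones were higher on average in TCDD dams. The part of blood in the lower estimate of Kiss1r in TCDD dams was not tested. With quantile normalization the adjusted p of the relation of Kiss1r with blood was 0.0278, and with the authors' table it was 0.0312. Over all 11 alternatives of processing or with 1 dam left out it ran up to 0.185.

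Among 11031 genes with a symbol and a signal well above background on all 8 arrays, the 3 whose log2 signal followed a member most closely were listed, for every member but Pdyn, by Pearson's r over the 8 dams. As the highest of so many, these values carry no test. Gnrh1 was closest to Pnoc, the precursor of the opioid-like peptide nociceptin, at r of 0.978 with the dams in the same order, and it was followed by Arpc1a at 0.97 and Timm8b at 0.965. Pnoc read 2.47, 2.47, 2.24 and 1.98 in control and 2.70, 2.06, 2.54 and 2.37 in TCDD dams. Kiss1 was closest to RT1-S3 (0.977), a class I histocompatibility gene, Tle1 (0.973) and Rps6ka5 (0.946). Npvf was closest to Moxd1 (0.974), Rnf168 (0.973) and Ube2q2l (0.963), and Inhba to Agt (0.979), the gene of angiotensinogen, which astrocytes make, RT1-T24-1 (0.958) and RT1-CE2 (0.955). Moxd1 is a scored marker of the preoptic area and septum and not of the dorsomedial list, and Npvf had r of -0.123 with the preoptic score.

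The closest genes of the other members were Chchd4 (0.982), Lactb2 (0.98) and Nudt2 (0.975) for Kiss1r. They were Blcap (0.98), Rnf113a1 (0.949) and Srfbp1 (0.936) for Tac2, the last at 0.412 without the 2 dams farthest from the median. For Oprk1 they were Zcchc12 (0.983), Atp6v0d1 (0.982) and Gprasp1 (0.973). Tacr3 and Fst had lower values, with Cd46 (0.936), Mipep (0.917) and Slc16a13 (0.913) for Tacr3 and Gemin7 (0.934), Ywhab (0.932) and Gja7 (0.932) for Fst.

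The rest of the pathway was read from 6 lists of 99 genes, of which 94 were on the array and 76 were bright enough to test. With limma 0 of the 76 passed the adjusted threshold, against 0.0181% of all genes. An unadjusted p under 0.05 was found for 2, against 11% of all genes, and both were higher in TCDD dams, where 7.28% of all genes were. Leaving out control replicate 2 made that count 1, where 1420 of all 16595 genes had such a p. It was 6 without TCDD replicate 1 (1976 of all 16871). It was 4 with quantile normalization or the authors' table (1857 of all 16574 in each) and without both replicate 1 arrays (1538 of all 16945). The median log2 fold change of the 76 was -0.02. Igsf1, a membrane protein of pituitary and hypothalamus that has been linked to inhibin and to thyroid function, read 5.02, 5.02, 4.99 and 5.21 in control dams and 5.22, 5.27, 5.22 and 5.32 in TCDD dams. Every TCDD dam lay above every control dam, though control replicate 4 came close, and the difference was 0.20 on the log2 scale (SE 0.063, unadjusted p = 0.0145, limma adjusted p = 0.309). These are the values of its brightest probe. As the mean of its probes the difference was 0.14 (unadjusted p = 0.0862, limma adjusted p = 0.54). Oprd1, the delta opioid receptor, was higher by 0.44 on the log2 scale, short of the adjusted threshold (SE 0.19, unadjusted p = 0.0482, limma adjusted p = 0.447), with values from -5.41 to -4.66 in control and from -4.83 to -4.16 in TCDD dams. With normexp correction it was 0.056 (unadjusted p = 0.441). The unadjusted p was above 0.05 also without the filter (0.0604), with the trended robust variance (0.0584) and without any 1 of control replicates 1 and 2 and TCDD replicates 2, 3 and 4 (0.056 to 0.125). It was below 0.05 with quantile normalization (0.0354), median scaling (0.0351), the authors' table (0.0355), array weights (0.0245) and the replicate number as a block (0.00355). The limma adjusted p of Oprd1 was at least 0.163 in every alternative. Nell2, expressed in glutamatergic neurons, was the other of 2 genes in the 76 whose groups did not overlap (7.28% of all genes), with a difference of -0.09 on the log2 scale (limma adjusted p = 0.567), and was chosen after its values were seen.

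By role, the steroid and metabolic inputs had 3 of 7 tested genes higher and 4 lower, with Pgr at -0.12 and Prlr at -0.04. The receptors that act on GnRH and kisspeptin neurons had 6 of 12 higher, with the substance P receptor gene Tacr1 at 0.14. The related neuropeptides had 4 of 9 higher, with Tac1, the substance P precursor, at -0.02 and Penk, the enkephalin precursor, at 0.01. The genes of peptide processing and degradation were lower in 7 of 9, and the regulators of GnRH neuron development and puberty in 15 of 24, where 53.8% of all genes were lower. In the activin, inhibin and follistatin list 9 of 15 were higher, with Inhbb at 0.14, Inha at -0.07 and Fstl1 at -0.14. With 1 array left out Fstl1 ran from -0.26 (without TCDD replicate 2, unadjusted p = 0.00514, limma adjusted p = 0.267) to -0.076 (without TCDD replicate 1), Inhbb from 0.057 (without TCDD replicate 4) to 0.23 (without TCDD replicate 1), Tacr1 from 0.025 (without control replicate 4) to 0.22 (without control replicate 1) and Pgr from -0.17 to -0.054 (without TCDD replicate 2). None of these named genes passed the limma test (adjusted p from 0.664 for Pgr to 0.988 for Penk). Gnrhr, Npffr1, Esr1 and Smad3 were well above background on 0 of 8 arrays, and Acvr2a on 2 arrays of each group, so no change in them can be given.

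The aryl hydrocarbon receptor binds DNA at xenobiotic response elements, and their core was searched in promoter windows of RefSeq's GRCr8 assembly. The letters were GCGTG, or CACGC on the other strand, in 250 bases before to 50 after the gene start. Windows of 6 of the 10 members matched by symbol, those of Kiss1, Kiss1r, Tacr3, Pdyn, Npvf and Inhba. The core was in 0 of the 6, and in 29.7% of all 33469 windows. Gnrh1, Tac2, Oprk1 and Fst had no match by symbol.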

How the data were processed

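Spot intensities, linear and not yet log-transformed, were deposited as scanner files. Per the file headers they come from Agilent's Feature Extraction software, version 10.7.1.1. The processed signal is background-subtracted, per the file headers. The authors' deposited value table, also intensities, has a median of 65.1 in all 8 columns. In log2 it correlated at 0.999 or more with the scanner files. Its scaling and centring are stated nowhere in these sources, and it was used as an alternative.

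Spots flagged as outliers were left out, spots of a probe were averaged, and log2 signals were set relative to the 75th percentile of each array's 30367 non-control probes. Taken over the 42877 non-control spots instead of the probes, that percentile was 474 to 699 on the linear scale. The share of probes well above background was 61.7% to 66.7% per array, and 8 arrays limit the precision. A probe was tested if well above background on all 4 arrays of a group, which 19102 were, and a gene was its brightest probe. Groups were compared with limma 3.58.1 in R 4.3.3 (lmFit and eBayes, 2-sided) with Benjamini-Hochberg adjustment over 16574 genes, at 0.05. On simulated data for this comparison with 67, 67 and 66 genes changed, it recovered 53.7% of changes of 0.5, 83.6% of 1 and 97% of 2 on the log2 scale, with 13 false calls. Recovery was not worked out for the 10 members alone. All 10 had a within-group SD above the median of all genes, and 4 lay above the 90th percentile. The shares recovered in the simulation therefore do not say how well a change in the members would be found. Correlations used exact permutation tests, 2-sided. Plots were made in Python 3.11.15 with matplotlib 3.10.9.

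All 10 members were named whatever their test. Other pathway genes were named at an unadjusted p under 0.05 or from a list of receptors, activin genes and peptides. The members, lists and tests were chosen with earlier results of these data known. Nell2 was added after its values were seen. A few genes that these rules name are not reported here. The alternatives concerned background correction, scaling, the authors' table, the filter, several probes of a gene, the variance model, weights of arrays, a block of replicate numbers, and arrays left out. The relations with marker scores, their alternatives and the 75th percentile over spots were added after seeing the data.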

Additional observations from a re-analysis of the deposited data

Results flagged for a closer look

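Control replicate 4 stood apart from the other control dams in the log2 signal of Igsf1. Its gap to the nearest of them was 0.879 of the group's whole range, above Dixon's 95% critical value for 4 samples. Chance alone flags about 1 group in 20, and the 10 members and the named pathway genes were all looked at in both groups.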

How the results depend on the processing

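The number of genes past the threshold was 3. It became 22 with normexp background correction, 0 without a filter (2008 genes at an unadjusted p under 0.05), 28 with the stricter filter, 34 with a trended robust variance and 102 with array weights. With the replicate number as a block it was 0 (2107 at an unadjusted p under 0.05). With each array left out it ran from 0 to 9: it was 9 without control replicate 3, 1 without control replicate 1, 2 without TCDD replicate 1 and 0 without each of the others. The members past the threshold were 0 in every alternative run, and those at an unadjusted p under 0.05 ran from 0 to 2 with each array left out. Over all genes that count ran from 1379 of 16732 (without control replicate 1) to 2122 of 16656 (without control replicate 4). The deviations of same-numbered control and TCDD arrays had correlations of 0.228, -0.0031, -0.045 and 0.103, where pairs with unlike numbers ran from -0.327 to 0.33. The deviations within a group sum to 0 by construction, so these values cannot show whether the numbers pair the dams. The block brought 0 members past the threshold. Some signs turned. Tac2 was -0.034 with normexp and -0.012 with median scaling. Tacr3 was -0.037 with normexp, -0.0046 with median scaling and -0.076 with array weights. Oprk1 was 0.021 as the mean of its probes, Tac1 0.028 with normexp, Penk -0.013 with median scaling and Prlr 0.036 with array weights. With each array left out, Gnrh1 ran from -0.13 to 0.60, Tac2 from -0.065 to 0.15, Tacr3 from -0.081 to 0.10, Prlr from -0.13 to 0.093, Penk from -0.029 to 0.064, Tac1 from -0.043 to 0.020 and Inha from -0.16 to 0.0020. The cause of these turns was not tested. Kiss1, Kiss1r, Pdyn, Npvf, Inhba and Fst kept their sign in the 21 alternatives run, but their size moved, from -0.49 to -0.076 for Kiss1, from -0.21 to -0.10 for Kiss1r, from -0.19 to -0.037 for Pdyn, from -0.47 to -0.11 for Npvf, from -0.28 to -0.076 for Inhba and from -0.33 to -0.052 for Fst.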
